A study of Mus musculus with 13 samples.

Results

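Acute-phase proteins are plasma proteins whose output changes during inflammation, and 6 genes encoding them were followed in the RNA of adipocyte ribosomes from mice on a high-fat diet (HFD) or chow. The set was chosen with earlier results of these data known. Its rows were taken by gene symbol, from 7 named genes: Orm1, Orm2, Hp, Lcn2, Saa3, Serpina3n and Itih4. 6 of these were found among the 11761 rows of the table, each once. Lcn2, the gene of a lipocalin that binds bacterial iron carriers, was not analysed here. The samples were epididymal white fat of Adipoq-NuTRAP mice on the C57BL/6J background, fed HFD for 10 weeks or kept on chow over the same 10 weeks, with 3 RNA libraries per diet. All animals, chow controls included, carry the NuTRAP reporter, which marks the ribosomes of cells that use the adiponectin promoter with GFP. Homogenized fat was passed over anti-GFP to collect these ribosomes, so RNA of other cells can be carried over. The sources used here give neither the fat content of the HFD, nor the age of the mice, nor whether each library is 1 animal. The p-values therefore reflect variation among these libraries only, and it may be technical in part.

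The liver makes most acute-phase protein, under interleukin-6 acting through STAT3, interleukin-1 and tumour necrosis factor acting through NF-kB, and glucocorticoids, with C/EBP factors at many of the promoters. White fat is a further source of several of these proteins, among them haptoglobin, orosomucoid and serum amyloid A3. Orm1 and Orm2 encode orosomucoids (alpha-1-acid glycoproteins), lipocalins that carry small lipophilic molecules. Hp encodes haptoglobin, which captures free haemoglobin. Saa3 encodes a serum amyloid A made outside the liver, which associates with high-density lipoprotein. Serpina3n encodes an inhibitor of serine proteases and is a mouse relative of human SERPINA3. Itih4 encodes a heavy chain of the inter-alpha-trypsin inhibitor family, which plasma kallikrein cleaves.

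On GRCm38.p6, the assembly that mm10 denotes, Orm1 lies on chromosome 4 at 63344556 to 63348163 and Orm2 on the same chromosome at 63362449 to 63365877. Orm3, another orosomucoid gene, stands between them at 63356069 to 63359506. Hp lies on chromosome 8 at 109575128 to 109579172, Saa3 on chromosome 7 at 46711998 to 46719615, Serpina3n on chromosome 12 at 104406646 to 104414334 and Itih4 on chromosome 14 at 30886476 to 30901986. In the RefSeq annotation the spans of Orm1 and Saa3 overlap a predicted gene each, Gm52743 and Gm31882, neither of which is a row of the table.

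Promoter windows of 300 bases (250 before the start and 50 after) were found in RefSeq (GRCm38.p6) for 5 of the 7 named genes, Lcn2 included. Those of Orm2, with its neighbour Orm3, of Saa3 and of Itih4 are shown because these genes differed between diets or varied widely below, and because the orosomucoid pair shows how alike the gene copies are. Capitals mark matches to TTGCNNAA (C/EBP), TTCNNNGAA (STAT), ACANNNTGT (glucocorticoid receptor) or GGGANNNTCC (NF-kB), searched on both strands, each sequence being written 5′ to 3′ on its gene's strand.
Orm2, chr4:63362199-63362498, plus strand: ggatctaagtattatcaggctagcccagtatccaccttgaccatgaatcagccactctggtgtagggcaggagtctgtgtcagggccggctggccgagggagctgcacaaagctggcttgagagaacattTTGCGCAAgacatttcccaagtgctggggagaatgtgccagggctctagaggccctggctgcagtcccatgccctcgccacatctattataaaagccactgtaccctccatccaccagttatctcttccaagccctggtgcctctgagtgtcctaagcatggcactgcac
Orm3, chr4:63355908-63356207, plus strand: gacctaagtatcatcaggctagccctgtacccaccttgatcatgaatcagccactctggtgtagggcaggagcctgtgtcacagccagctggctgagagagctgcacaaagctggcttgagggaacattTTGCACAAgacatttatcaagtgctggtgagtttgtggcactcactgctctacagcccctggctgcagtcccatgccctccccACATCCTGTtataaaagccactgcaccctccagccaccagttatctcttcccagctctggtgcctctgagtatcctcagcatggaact
Saa3, chr7:46715627-46715926, minus strand: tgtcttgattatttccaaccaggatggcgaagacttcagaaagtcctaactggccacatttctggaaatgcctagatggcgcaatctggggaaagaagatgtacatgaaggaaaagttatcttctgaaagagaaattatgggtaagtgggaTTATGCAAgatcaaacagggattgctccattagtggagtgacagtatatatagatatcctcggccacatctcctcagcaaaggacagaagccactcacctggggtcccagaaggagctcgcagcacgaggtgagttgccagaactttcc
Itih4, chr14:30886226-30886525, plus strand: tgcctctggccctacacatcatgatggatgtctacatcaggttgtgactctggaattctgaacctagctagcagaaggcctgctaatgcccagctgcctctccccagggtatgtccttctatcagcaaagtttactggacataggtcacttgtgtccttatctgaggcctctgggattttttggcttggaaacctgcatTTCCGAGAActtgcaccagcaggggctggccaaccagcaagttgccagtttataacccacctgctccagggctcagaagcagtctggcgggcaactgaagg

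The Orm2 and Orm3 windows were identical at 264 of 305 aligned columns (86.6%). TTGCNNAA matched once in the Orm2 window, 120 bases upstream of the start, once in the Orm3 window, 121 bases upstream, and once in the Saa3 window, 99 bases upstream. Of all 32817 promoter windows, 10.8% held this motif. The Itih4 window held 1 match to TTCNNNGAA, 51 bases upstream, a motif held by 8.29% of all windows. The window of Serpina3n, not printed, held 1 match to ACANNNTGT, 76 bases upstream, against 6.85% of all windows. The Orm3 window held another, 38 bases upstream, and that of Lcn2, not printed, 1 match each to TTGCNNAA and ACANNNTGT. None of the members' windows held GGGANNNTCC, against 4.60% of all windows. Orm1 and Hp had no window, so their promoters were not searched. The matches did not overlap each other. The window of Saa3 is placed on a start at 46715676, which lies 3939 bases inside the gene span given above, so it describes an internal start and not the outer end of the span. The starts used for Orm3 and Serpina3n lie 89 and 62 bases inside their spans. A match describes these letters and not a bound site, and neither binding nor chromatin marks at these promoters were analysed here.

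Levels are given as CPM (read counts scaled to library size), the power of 2 of the deposited log2 values. CPM is not divided by transcript length, so levels are compared between diets within a gene and not between genes. The effective depth was 32000000 to 39400000 reads in the HFD libraries and 7430000 to 32500000 reads in the chow libraries, the lowest being chow replicate 3. Fold changes are HFD minus chow on the log2(CPM + 1) scale, which understates changes of low genes, tested with limma over the 11643 genes whose 6-library mean reached 1 CPM, and called at a Benjamini-Hochberg adjusted p below 0.05. Adipocyte markers were abundant in all libraries, with Adipoq at 1310 to 1580 CPM in HFD and 1980 to 2740 CPM in chow, and Plin1 at 1460 to 1700 CPM in HFD and 2150 to 2470 CPM in chow. Of the liver markers checked, albumin (Alb) alone was among the listed genes, at 10.9 to 12.0 CPM in HFD and 12.1 to 18.1 CPM in chow (log2 difference -0.40, limma adjusted p 0.123). In RNA pooled from many cells, fewer cells of a type and less RNA per cell cannot be told apart.

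The acute-phase genes differed between the diets in different directions. Both orosomucoid genes were higher, Itih4 was lower, and Hp, Serpina3n and Saa3 did not pass the test. Over all tested genes 35.1% were called, 19.1% higher and 16.0% lower in HFD, so 3 of 6 members called (2 higher and 1 lower) is near what the whole table gives for either direction. For 3 of the 6 members, and for 50.2% of all tested genes, the HFD and chow libraries did not overlap. The median log2 fold change was 1.13 over the 6 members and 0.00 over all tested genes. The members' median lies between Serpina3n (0.56) and Saa3 (1.69), neither of which passed, so it shows no shift of the group. Itih4 averaged under 1 CPM in HFD and entered the test only through its chow libraries, so its call and these counts carry no weight as support for a group pattern.

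**Figure D1:**
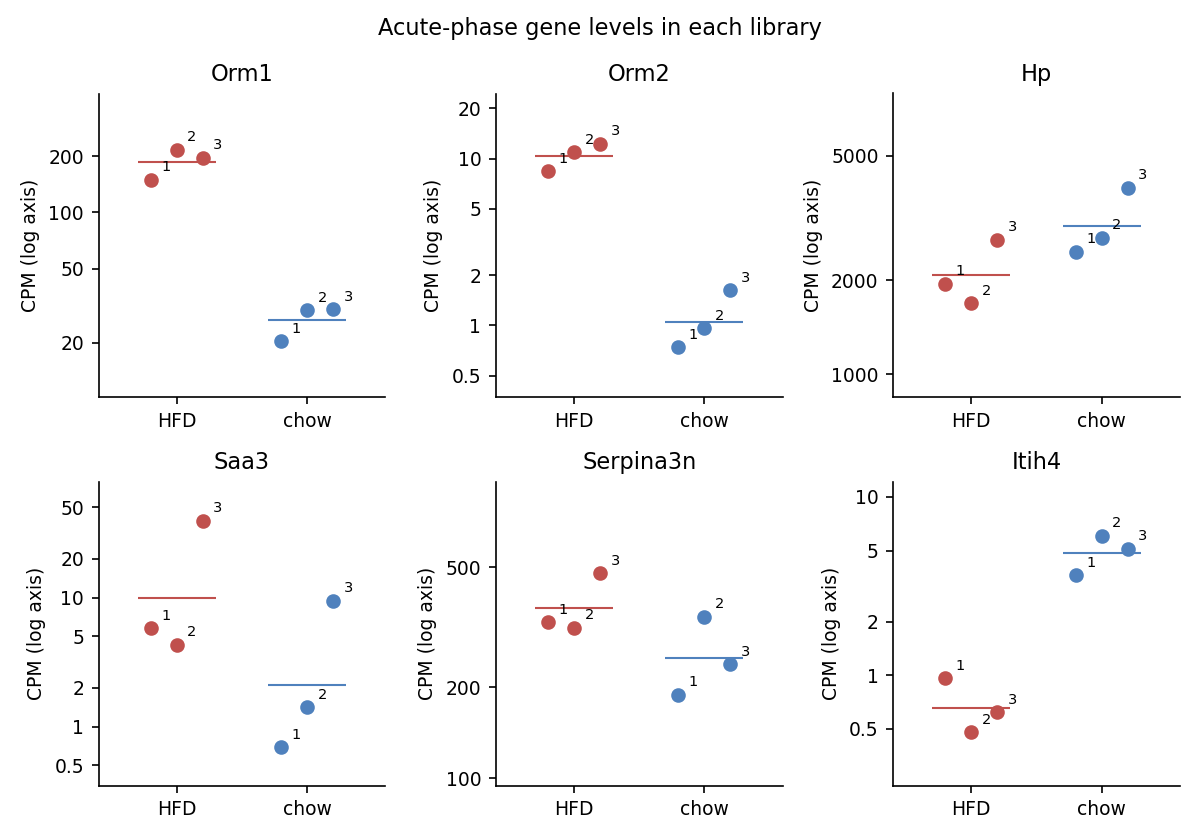
Level of each acute-phase gene in CPM (log axes) in the 3 HFD and 3 chow libraries. Numbers are replicate numbers and lines are geometric means; Orm1 and Orm2 are higher and Itih4 is lower in every HFD library, while Hp, Saa3 and Serpina3n overlap between diets.

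Orm1 stood at 150, 217 and 197 CPM in HFD replicates 1, 2 and 3, and at 20.5, 30.1 and 30.3 CPM in chow replicates 1, 2 and 3. The lowest HFD library lay well above the highest chow library, and the mean was 188 ± 34.2 CPM in HFD and 27 ± 5.56 CPM in chow (SD, n = 3 each), 6.97-fold higher. The log2 fold change was 2.76 (SE 0.19, 95% interval 2.33 to 3.19, limma adjusted p 1.77e-05), which ranked 123 from the top among 11643 genes. At least 225 reads stood behind each of its values. Orm1 and its relatives are alike in sequence, and how the counting treated reads that match several of them is not given in the sources used here, so the division of reads among the orosomucoid genes is uncertain.

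Orm2 stood at 8.40, 10.9 and 12.3 CPM in HFD replicates 1, 2 and 3, and at 0.742, 0.966 and 1.62 CPM in chow replicates 1, 2 and 3. Every HFD library was again above every chow library, with means of 10.5 ± 1.98 CPM in HFD and 1.11 ± 0.459 CPM in chow (SD, n = 3 each), 9.49-fold higher. The log2 fold change was 2.46 (SE 0.25, 95% interval 1.89 to 3.03, limma adjusted p 0.000133). With the deposited log2 values used directly, with no pseudocount, it was 3.31 (adjusted p 0.000306). The chow values rest on 17, 31 and 12 reads, against 283, 349 and 484 reads in HFD. Orm3, named after its values were seen, was higher too, at 31.8, 44.0 and 14.2 CPM in HFD and 5.74, 5.17 and 9.58 CPM in chow (log2 fold change 1.89, limma adjusted p 0.00428). Its values spread more within HFD than those of Orm1 and Orm2, with HFD replicate 3 the lowest for Orm3 and the highest for Orm2.

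Itih4 moved the other way. It stood at 0.959, 0.480 and 0.620 CPM in HFD replicates 1, 2 and 3, and at 3.63, 6.06 and 5.13 CPM in chow replicates 1, 2 and 3, so that every HFD library was below every chow library. The mean was 0.686 ± 0.247 CPM in HFD and 4.94 ± 1.23 CPM in chow (SD, n = 3 each). The log2 fold change was -1.81 (SE 0.28, 95% interval -2.43 to -1.19, limma adjusted p 0.00112), and -2.88 with the deposited log2 values used directly (adjusted p 0.00225). The values rest on 32, 15 and 24 reads in HFD and 84, 197 and 38 reads in chow. Among all tested genes its fold change ranked 88 from the bottom.

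Hp stood at 1950, 1690 and 2700 CPM in HFD replicates 1, 2 and 3, and at 2470, 2740 and 3960 CPM in chow replicates 1, 2 and 3. The diets overlapped, since HFD replicate 3 lay above chow replicate 1, and replicate 3 was the highest library in each diet. The mean was 2110 ± 527 CPM in HFD and 3060 ± 792 CPM in chow (SD, n = 3 each), with a log2 difference of -0.53 (SE 0.24, 95% interval -1.06 to 0.00, limma adjusted p 0.111). Between 29400 and 106000 reads stood behind each value, so the spread between libraries and not counting error set the width of this interval. The interval holds no higher level in HFD of the size seen for Orm1.

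Serpina3n stood at 329, 315 and 478 CPM in HFD replicates 1, 2 and 3, and at 189, 343 and 239 CPM in chow replicates 1, 2 and 3. Chow replicate 2 lay above 2 of the HFD libraries. The mean was 374 ± 90.2 CPM in HFD and 257 ± 78.4 CPM in chow (SD, n = 3 each), and the log2 difference of 0.56 (SE 0.23, 95% interval 0.04 to 1.08) did not pass (limma adjusted p 0.0897). Without chow replicate 2 the difference was 0.79 and passed (adjusted p 0.0212). Serpina3c, a relative in the same gene cluster that was picked out after its values were seen, stood at 229 to 265 CPM in HFD and 198 to 307 CPM in chow. Among less abundant relatives, picked out in the same way, Serpina3k was lower in HFD (-1.53, limma adjusted p 0.00759), tested only through its chow libraries. Serpina3i (-0.96, adjusted p 0.0965) and Serpina3g (0.09, adjusted p 0.9) did not pass. Reads of alike serpin genes could likewise be split by the counting.

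**Figure D2:**
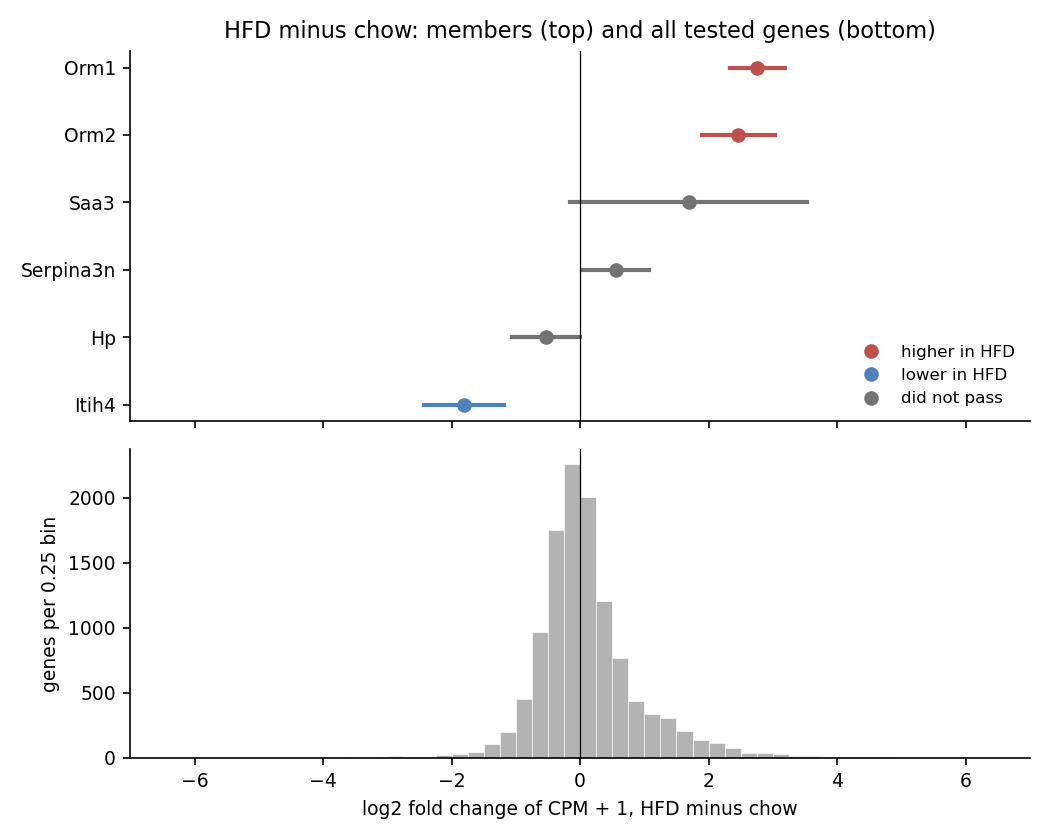
Log2 fold change of CPM + 1, HFD minus chow, of the 6 acute-phase genes with 95% intervals from limma (upper axes) and of all 11643 tested genes in bins of 0.25 (lower axes). Orm1 (2.76) and Orm2 (2.46) lie in the right tail and Itih4 (-1.81) in the left tail, while the interval of Saa3 runs from -0.15 to 3.54.

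Saa3 varied most between libraries. It stood at 5.78, 4.32 and 39.4 CPM in HFD replicates 1, 2 and 3, and at 0.697, 1.42 and 9.45 CPM in chow replicates 1, 2 and 3. Replicate 3 was far above the other two in each diet, and chow replicate 3 lay above HFD replicates 1 and 2. The mean was 16.5 ± 19.8 CPM in HFD and 3.86 ± 4.86 CPM in chow (SD, n = 3 each), and the log2 difference of 1.69 (SE 0.82, 95% interval -0.15 to 3.54) did not pass (limma adjusted p 0.138). It was 0.78 (adjusted p 0.432) without HFD replicate 3 and 2.48 (adjusted p 0.0501) without chow replicate 3. The high values rest on 1550 reads in HFD replicate 3 and 70 reads in chow replicate 3, the other libraries holding 138 to 194 reads in HFD and 16 to 46 in chow. The SD within diets on the log2 scale was 1.5 for Saa3, above that of 99.9% of tested genes, against 0.26 to 0.38 for the other members and a median of 0.21 over all tested genes.

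Markers of other cells of fat were set beside Saa3, which fibroblasts, macrophages and mesothelial cells can also express. The summed level of 11 mesothelial markers was 65.4, 70.7 and 191 CPM in HFD replicates 1, 2 and 3, and 45.0, 42.2 and 25.7 CPM in chow replicates 1, 2 and 3. The replicate 3 library was thus the highest of the HFD libraries, as for Saa3, and the lowest of the chow libraries, unlike Saa3. The mesothelial gene Msln was at 18.3, 13.3 and 62.2 CPM in HFD and 8.82, 8.28 and 8.75 CPM in chow. The summed level of 19 macrophage markers was 775, 553 and 612 CPM in HFD replicates 1, 2 and 3, and 214, 188 and 218 CPM in chow replicates 1, 2 and 3. In this sum HFD replicate 1 was the highest of the HFD libraries, unlike Saa3. Chow replicate 3 was the highest of the chow libraries, as for Saa3, but close to chow replicate 1. The summed level of 17 fibroblast and progenitor markers was 4680, 2360 and 4250 CPM in HFD replicates 1, 2 and 3, and 3210, 2760 and 3980 CPM in chow replicates 1, 2 and 3. In this sum replicate 3 was thus the highest of the chow libraries, as for Saa3. HFD replicate 1 was the highest of the HFD libraries, unlike Saa3. Col1a1, Col1a2, Col3a1 and Fbn1 made up most of the sum (1050, 891, 1640 and 729 CPM in HFD replicate 1). Dpt (88.6, 64.9 and 136 CPM) and Pi16 (10.9, 2.2 and 19.8 CPM) were highest in HFD replicate 3. Pdgfra (31.6, 13.2 and 27.1 CPM) was highest in HFD replicate 1. In chow, Dpt, Pi16 and Pdgfra were each highest in replicate 1. The part of these cells in the Saa3 values was not tested.

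**Figure D3:**
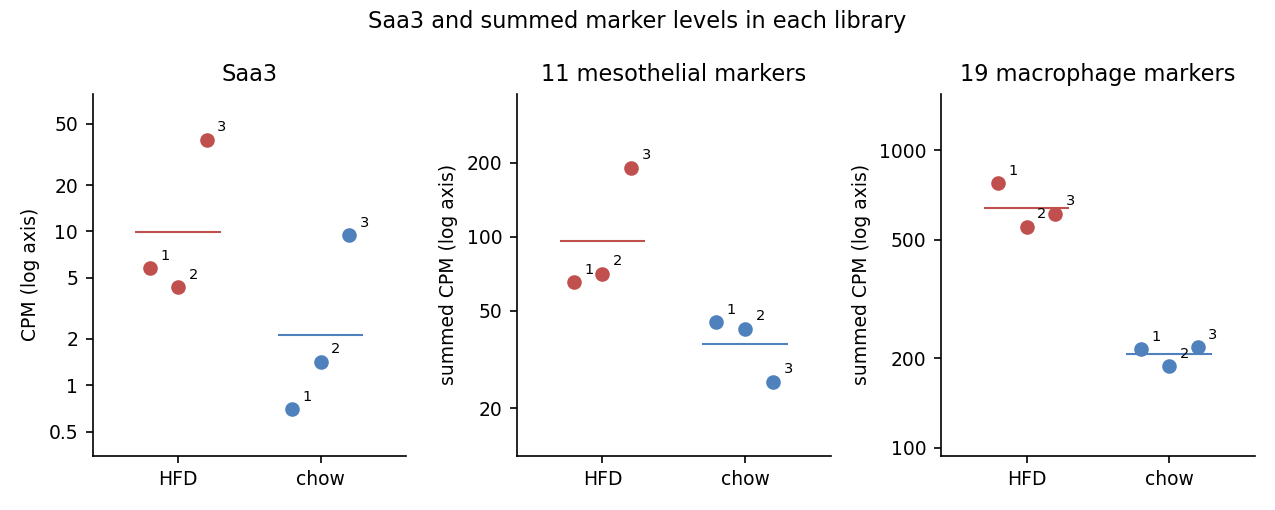
Saa3 in CPM, and the summed CPM of 11 mesothelial and 19 macrophage markers (log axes), in the 3 HFD and 3 chow libraries, with replicate numbers and geometric means. Saa3 is highest in replicate 3 of each diet, the mesothelial sum (191 CPM) in HFD replicate 3 alone.

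Marker genes of other cells differed by diet as well, beside 19.1% higher and 16.0% lower over all tested genes. Of 19 tested macrophage markers 17 were higher and 1 (Cd14) was lower, with a median log2 fold change of 1.76. Of 13 endothelial markers 12 were higher, with summed levels of 224 to 455 CPM in HFD and 46.5 to 132 CPM in chow. Of 17 fibroblast and progenitor markers 7 were higher and 1 (Dcn) lower, the lower being 2 without HFD replicate 3. Of 10 tested mesothelial markers 4 were higher, and 2 without chow replicate 3. Of the neutrophil markers, 1 gene was tested, S100a8, which was higher. It stood at 5.94, 15.2 and 25.8 CPM in HFD and 0.18 and 0.441 CPM in chow replicates 1 and 2, with 0 reads in chow replicate 3. S100a8 averaged 0.21 CPM in chow and entered the test only through its HFD libraries, so its call carries no weight as support. The same holds for the macrophage markers Cd68, Fcgr1, Trem2 and Tyrobp and the endothelial marker Emcn, each averaging under 1 CPM in chow. The defining markers Adgre1 (24.6 to 44.0 CPM in HFD, 3.10 to 4.06 CPM in chow) and Pecam1 (18.9 to 43.1 CPM in HFD, 3.73 to 7.78 CPM in chow) were at 0 in no library. The part of these cells in the orosomucoid and Itih4 values was not tested. Of 21 adipocyte markers 3 were higher and 9 lower (median -0.49), with 5 lower without HFD replicate 3.

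The genes whose 6 library values, each gene centred on its own mean, lay nearest to a member's were named by the root mean square distance in log2(CPM + 1). For Orm1 these were Fam83a (distance 0.19), Sh3bgrl2 (0.20) and Bmp3 (0.21). For Orm2 they were Syp (0.14), Bmp3 (0.14) and Cldn15 (0.16). For Itih4 they were Htra4 (0.13), Sgpp1 (0.16) and Ivd (0.16), for Hp they were Bri3bp (0.07), Pabpc1 (0.08) and Cpox (0.11), and for Serpina3n they were Folh1, Ddr1 and H2-Q4 (0.12 each). No gene came near Saa3, whose nearest were Cspg4 (0.80), Tmem176a (0.81) and Msln (0.85). Over 6 libraries in 2 groups, a small distance says little beyond a like difference between diets.

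Of 51 further acute-phase genes, 20 were tested, of which 5 were higher, 6 were lower and 9 did not pass. Their median log2 fold change was -0.02, and over all tested genes 19.1% were higher and 16.0% lower. The lipopolysaccharide-binding protein gene Lbp was at 425, 413 and 592 CPM in HFD and 90.5, 124 and 140 CPM in chow (2.01, limma adjusted p 9.92e-05). Serping1, the gene of the complement C1 inhibitor, was higher by 3.06 on the log2 scale. The copper-carrying oxidase gene Cp was at 30.1, 30.5 and 32.7 CPM in HFD and 229, 309 and 194 CPM in chow (-2.91, limma adjusted p 7.93e-06). Cd14 (-2.22), a lipopolysaccharide co-receptor gene, and Agt (-1.85), the angiotensinogen gene, were lower. The pentraxin gene Ptx3 was higher (1.36, limma adjusted p 0.0134), and the complement gene C3 differed by 0.60 (adjusted p 0.111). As among the members, neither direction prevailed.

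**Figure D4:**
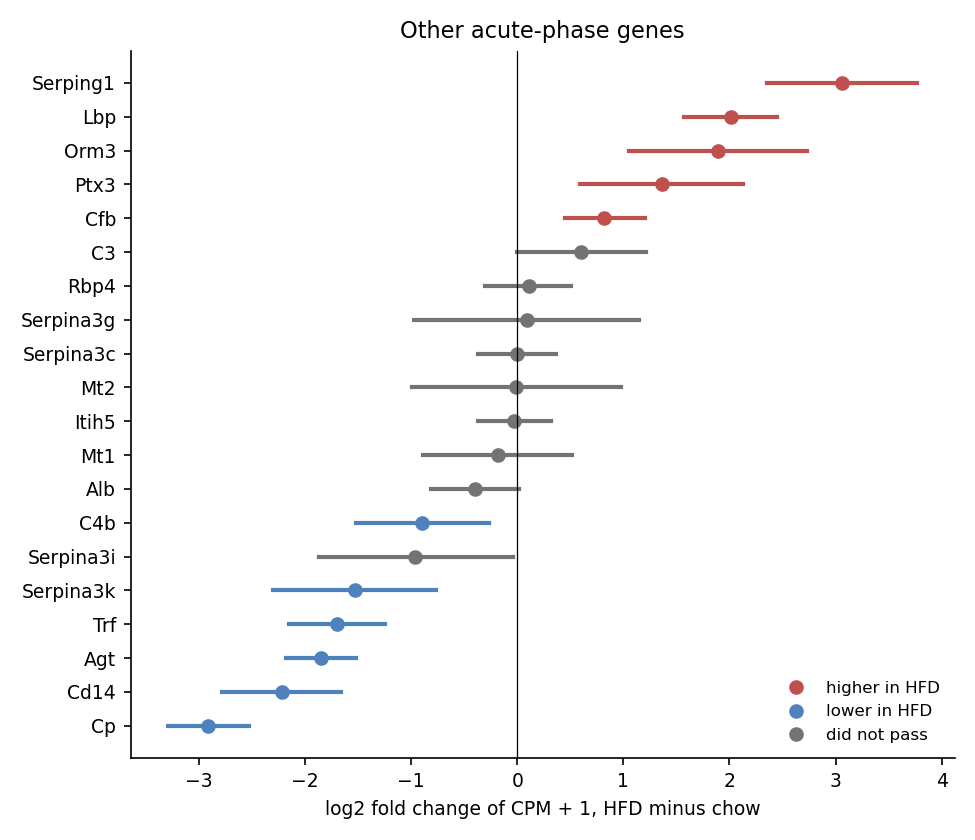
Log2 fold change of CPM + 1, HFD minus chow, with 95% limma intervals, of the 20 further acute-phase genes tested. 5 genes are higher in HFD, led by Serping1 (3.06), and 6 are lower, led by Cp (-2.91).

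Genes of the pathways that drive acute-phase genes elsewhere went in both directions, beside 19.1% higher and 16.0% lower over all tested genes. The counts below were not tested against these shares. Of 19 genes of the interleukin-6, gp130 and STAT3 route, 5 were higher and 2 lower (median 0.14): the oncostatin M receptor gene Osmr (0.98), the leukaemia inhibitory factor receptor gene Lifr (0.90) and the kinase gene Pim1 (1.10) were among the higher, and Cish (-2.16) and Il11ra1 (-0.84) were lower. The shared receptor gene Il6st stood at 324 ± 29.3 CPM in HFD and 331 ± 36.0 CPM in chow (SD, n = 3 each), with a log2 difference of -0.03 (95% interval -0.33 to 0.27), Stat3 differed by -0.26 (-0.61 to 0.08), Socs3 by 0.62 (-0.23 to 1.48) and Il6ra did not pass (0.31, limma adjusted p 0.218). The count of higher genes fell whenever a library was left out, as did calls over all genes. It was 3, 2 and 1 without HFD replicates 1, 2 and 3, and 3 without chow replicate 1 or 2. Without HFD replicate 2 or 3, 1 gene was lower. With all libraries kept, 3 genes were higher under quantile normalization or adipocyte marker scaling. The same number was higher with the deposited log2 values used directly or a mean of at least 5 CPM. Of 36 genes of interleukin-1, tumour necrosis factor and NF-kB, 10 were higher and 4 lower (median 0.17). Tnfrsf1b (1.13) was higher, as were Nfkbie (1.62) and Il18r1 (0.92), which averaged under 1 CPM in chow and were tested only through HFD libraries. Il18 (-0.79), Traf6 (-0.56) and Irak1 (-0.53) were lower, and Nfkbia (-0.41) and Nfkbiz (0.24) did not pass. Here 4, 5 and 5 genes were higher without HFD replicates 1, 2 and 3, and 5 without chow replicate 3. The lower genes were 2 without chow replicate 1 or 2, and 0 after scaling to the median adipocyte marker gene. Of 14 genes of C/EBP and glucocorticoid action, 2 were higher and 6 lower (median -0.47). The C/EBP-alpha gene Cebpa was at 880 ± 89.7 CPM in HFD and 1540 ± 394 CPM in chow (-0.78, limma adjusted p 0.0116), and the glucocorticoid receptor gene Nr3c1 at 316 ± 31.0 CPM in HFD and 550 ± 45.7 CPM in chow (-0.80, adjusted p 0.0017; SD, n = 3 each). Within this list Fkbp5 (-1.57) and Zbtb16 (-1.45) were also lower, Tsc22d3 did not pass (0.28), and Dusp1 (1.68) and Ddit3 (1.56) were higher. The genes Il6, Il1b, Tnf, Cebpb and Cebpd were not analysed here.

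Of 11 tested receptor and partner genes of acute-phase proteins, 4 were higher and 1 lower (median 0.40), beside 19.1% and 16.0% of all tested genes. Cd163, the receptor gene for haptoglobin bound to haemoglobin, stood at 56.9, 41.1 and 54.6 CPM in HFD and 43.4, 28.6 and 39.4 CPM in chow and did not pass (0.45, limma adjusted p 0.095). Cd44, a receptor gene for hyaluronan, the glycan to which some heavy chains of the Itih family are joined, was higher (3.12, limma adjusted p 4.42e-05). It was at 56.9, 52.0 and 71.5 CPM in HFD and 4.53, 9.65 and 4.72 CPM in chow. Scarb1, a receptor gene for high-density lipoprotein that also binds serum amyloid A, was lower (-0.66), a call lost with equal totals or adipocyte marker scaling. Lrp2 (2.36), an endocytic receptor gene, was higher.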

How the data were processed

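Each library's values, per the file headers 1 column per library, are log2 CPM as the authors deposited them, rounded to 2 decimals. The log2 base was read from the values, whose anti-logs sum to 984422 to 1182123 per library. The submitters' processing notes name HISAT2, featureCounts, edgeR and mm10, without roles. The sources used here state neither the authors' filter nor their prior count. The lowest deposited value, -6.85, is 0.00867 CPM. After subtracting it, all low values (under 20 reads) were whole reads within 0.1 of a read, which gave the effective depths and read numbers.

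CPM is 2 raised to the deposited value. The quantity log2(CPM + 1) was fitted (limma 3.58.1, R 4.3.3, eBayes, mean-variance trend) for the 11643 genes averaging 1 CPM or more. Tests were two-sided, and the Benjamini-Hochberg adjustment covered all of these genes. The members and lists were chosen with earlier results of these data known. Named genes are the members, up to 3 called higher and 3 lower of each list by fold change, a set of 24 genes (17 listed) and the 3 genes nearest to each member (mean of at least 10 CPM, predicted symbols left out). A selection is printed, and some results are not reported here. The Orm2 and Orm3 windows were aligned with Biopython 1.88. The 5 H3K27ac and 2 PPARG samples were not analysed here. Scalings, pseudocounts, filters, voom weights, a replicate block and leaving out each library were tried.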

Additional observations from a re-analysis of the deposited data

How the results depend on the processing

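Orm1 and Orm2 kept their direction and their call under all 16 alternatives and Itih4 under all 15 that could be fitted (it falls below a mean of 5 CPM). Over them the log2 fold change lay between 2.58 and 2.93 for Orm1, 1.98 and 3.41 for Orm2, and -2.90 and -1.67 for Itih4. Leaving out each library in turn gave 2.58 to 2.91 for Orm1, 2.33 to 2.63 for Orm2, -1.97 to -1.67 for Itih4, -0.72 to -0.33 for Hp (adjusted p 0.0642 to 0.33), 0.78 to 2.48 for Saa3 and 0.36 to 0.79 for Serpina3n (adjusted p 0.0212 to 0.294). Serpina3n passed with quantile normalization (0.67, adjusted p 0.0356). Equal totals moved the median of all genes by 0.10 and scaling to the median adipocyte marker gene by 0.15. The adipocyte marker scaling gave 708 lower genes, against 1863 as reported. Leaving out each library gave 1162 to 1740 lower and 1688 to 2101 higher genes, 1162 being without HFD replicate 3. Of 384 recomputed counts of the other lists, 30 moved by over 1.5 times, 21 of them counts of the interleukin-6 and interleukin-1 routes. Voom weights were added after the data were seen.

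The labels do not say that replicate numbers pair libraries. Same-numbered libraries deviated together for numbers 1 and 2 (correlations across genes of 0.433 and 0.232) but less for 3 (0.0862). Of the differently numbered pairs, HFD replicate 2 and chow replicate 3 stood at 0.15, above number 3, and the rest were negative. Deviations were taken from the mean of each diet, so positive values for some pairs bring negative values for others. The negative values are therefore no separate evidence on pairing. With a replicate block Saa3 (1.69, adjusted p 0.00069), Hp (-0.53, adjusted p 0.0296) and Serpina3n (0.56, adjusted p 0.0487) passed too, and 2594 genes were higher and 2245 lower. Few reads limit Orm2 in chow and Itih4 in HFD, and low depth limits chow replicate 3. The cause of these shifts was not tested.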
